A study of Mus musculus with 11 samples.

Results

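The genes described here are 9 of the 24391 genes in the count table of 1b+/- and WT hippocampus: Dach1, Dner, Otof, Smoc1, Ecel1, Myh7, Ngb, Asic1 and Dclk3. They were chosen because every 1b+/- library was below every WT library of the same sequencing round, so their values in that contrast are given as a description, without a test. The values that chose them were the CPM of 4 1b+/- and 3 WT libraries and the rank of the fitted difference. By its p-value, 8 of them lay among the first 11 of 14630 genes tested (Dach1 first, Dner second, Ngb at rank 11) and Dclk3 at rank 63. The list is not a complete top list, since Trh, Cdh4 and Gabrg1 at ranks 3 to 5 and Cartpt at rank 12 are outside it.

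The study deleted the 1b interval of Scn1a, a conserved non-coding stretch at the alternative start site of the gene for the sodium channel NaV1.1, with CRISPR/Cas9 in C57BL/6N mice. All 11 libraries are from hippocampus of 1 hemisphere at postnatal day 32 (the labels say adult), from mice of 1 deletion line. In the homozygous round, 2 female WT mice were compared with 2 1b-/- mice, a male (replicate 1) and a female (replicate 2). In the heterozygous round, 3 male WT mice were compared with 4 1b+/- mice, of which replicates 1 to 3 were male and replicate 4 was female. The deletion is constitutive, so every cell of the mutants carries it. Replicate numbers were given in order of deposit and pair no animals. The rounds were sequenced separately, with short single-end reads in the homozygous and longer paired-end reads in the heterozygous round.

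Library totals ran from 20667122 to 36145161 counts, so 1 CPM was at least 20.7 counts. Across these 9 genes the counts ran from 32, for Ngb in a homozygous-round WT library, to 6039 for Dner in a 1b-/- library. Scn1a, the targeted gene, was at 26.3 and 16.7 CPM in the 1b-/- libraries and 134 and 173 CPM in their WT libraries, a fall of 2.83 on the log2 scale (SE 0.27, edgeR quasi-likelihood, adjusted p = 0.0211). In the heterozygous round its CPM was 91.1, 83.3, 96.6 and 119 in 1b+/- and 171, 113 and 123 in WT, so the groups overlapped (log2 fold change -0.47, SE 0.15, adjusted p = 0.303).

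The 2 WT libraries of the homozygous round stood apart from the other 9 in their regional markers. Scaled over all 11 libraries, 14 striatal marker genes summed to 11146 and 4784 CPM in these WT libraries and to between 668 and 1017 CPM elsewhere. Cholinergic markers of the basal forebrain summed to 115 and 50.5 CPM against 1.79 to 12.4 CPM. Neocortex markers summed to 819 and 906 CPM against 448 to 672 CPM, with 8 of 10 lower in 1b-/- and 1 past the test. Hippocampal pyramidal cell markers summed to 444 and 571 CPM against 1011 to 1618 CPM, and C1ql2, a gene of dentate granule cells, was at a mean of 1.79 CPM there, 36.1 CPM in the heterozygous-round WT and 73.7 CPM in 1b-/-. All 14 striatal genes were lower in 1b-/- than in these WT libraries and 13 passed the test. All 11 pyramidal cell genes were higher and 6 passed, as did 4 of the 8 dentate genes that were higher. Of the 10 interneuron markers, Gad2 fell from 335 to 163 CPM and Cck rose from 155 to 403 CPM. In bulk tissue, fewer cells of a type and less RNA per cell cannot be told apart. Every homozygous difference rests on these WT libraries, and the part of the regional markers in it was not tested.

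**Figure D1:**
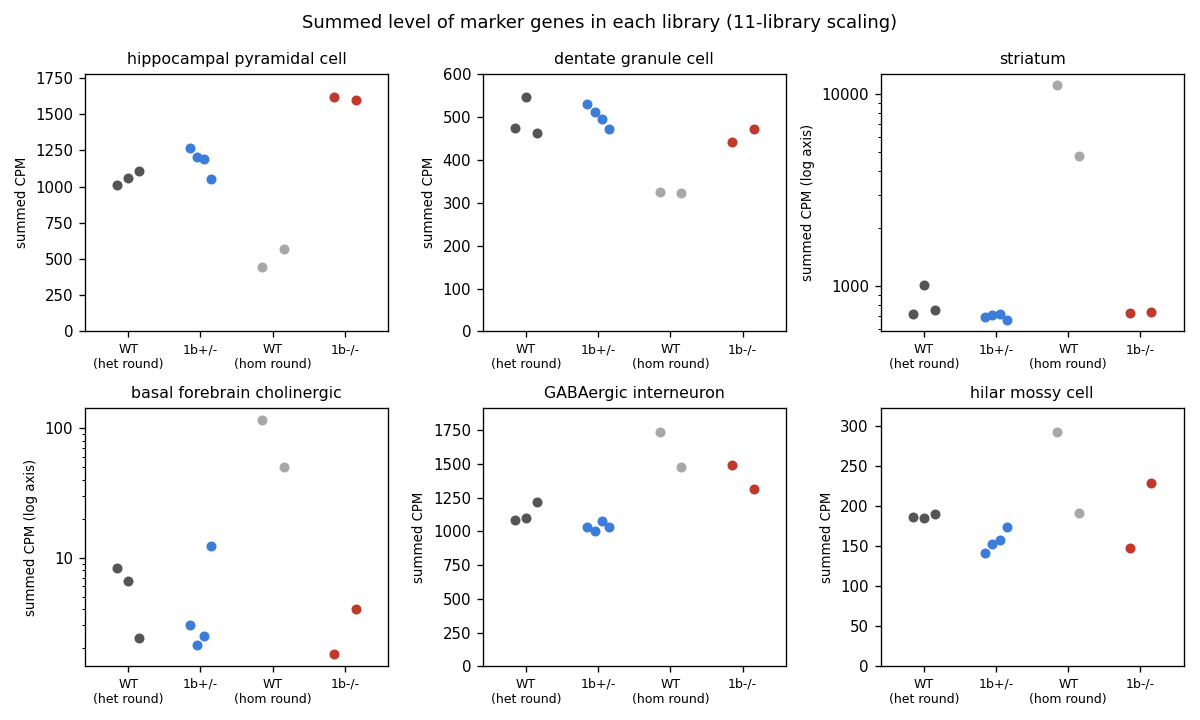
Summed CPM of 6 lists of marker genes in each of the 11 libraries (1 point a library, scaled over all libraries; log axes for striatum and basal forebrain, axes from 0 for the others). The striatal and basal forebrain sums of both homozygous-round WT libraries lie above all other points, and their pyramidal and dentate sums lie below all others.

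The 9 genes do not form 1 pathway. Dach1 encodes a transcriptional cofactor of the retinal determination network, which works with proteins of the Eya family. Dner and Smoc1 encode a transmembrane protein of neurons with EGF repeats that binds Notch and a secreted calcium-binding matrix protein that limits BMP signalling. Otof encodes otoferlin, a ferlin that couples calcium to vesicle release in inner hair cells, and Asic1 a proton-gated sodium channel of neurons. Ecel1 encodes a neuronal metallopeptidase of the neprilysin family, Myh7 the slow myosin heavy chain of heart and muscle, Ngb the oxygen-binding neuroglobin, and Dclk3 a kinase of the doublecortin-like group.

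In mm9, Dach1 (98186066 to 98568984) and Myh7 (55589525 to 55613471) share the minus strand of chromosome 14. Dner (84366416 to 84692796) and Ecel1 (89044230 to 89053096) are on the minus strand of chromosome 1. Chromosome 12 holds Smoc1 on the plus strand (82127795 to 82287401) and Ngb on the minus strand (88438481 to 88443489). Otof is on the minus strand of chromosome 5 (30669351 to 30764305), Asic1 on the plus strand of chromosome 15 (99501149 to 99531561) and Dclk3 on the plus strand of chromosome 9 (111341585 to 111392115). None shares chromosome 2 with Scn1a. Dach1, Dner and Myh7 each overlap an annotated gene on the other strand (Gm16331, AC123882.1 and Gm17428), and Dach1, Smoc1 and Myh7 one on the same strand (U1, AC124398.1 and Mir208b). The strand setting of the counting is not given in the sources used here, so reads in these overlaps are uncertain.

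Myh7 is the one of the 9 whose reads can also come from a near-identical neighbour. Of its 6404 windows of 50 bases in annotated protein-coding transcripts, 1373 (21.4%) occur unchanged in another gene, all of them in Myh6, the fast cardiac myosin heavy chain. Dach1 shared 3 windows and the other 7 genes none. The longest run that Myh7 shares with Myh6 within 1 exon is 200 bases of coding sequence in exon 38 of 41, printed here because a short single-end read inside it fits both genes. In the heterozygous round Myh6 was at 5.03 CPM in 1b+/- and 3.72 CPM in WT, opposite in sign to Myh7, with overlapping groups. In the homozygous round, with the short reads, Myh6 was at 4.45 CPM in 1b-/- and 4.62 CPM in WT. Its log2 fold change there was -0.05 (SE 0.34), with overlapping groups. The part of Myh6 reads in the Myh7 counts was not tested.
Myh7 exon 38 (chr14:55591595-55591794, minus strand, mm9): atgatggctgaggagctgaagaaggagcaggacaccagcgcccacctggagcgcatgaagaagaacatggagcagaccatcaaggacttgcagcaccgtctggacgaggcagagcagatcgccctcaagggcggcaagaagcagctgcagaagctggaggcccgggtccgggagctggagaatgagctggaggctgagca

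Promoters were looked up because the 9 genes were chosen for moving the same way. RefSeq promoter windows of GRCm38.p6, from 250 bases before to 50 bases after the start, were matched for 5 of the 9 genes, Dach1, Dner, Ecel1, Myh7 and Asic1. Otof, Smoc1, Ngb and Dclk3 were missing. On both strands, the windows were searched for the TATA box TATAAA (in 13.62% of 32851 windows of the table), the GC box GGGCGG (35.66%), the CCAAT box (37.41%), the cAMP response element TGACGTCA (1.79%) and the E-box CACGTG (7.15%). The CCAAT box was in the window of Ecel1, where it reads ATTGG on the strand shown, and in both windows of Myh7. No searched motif was in the windows of Dach1, Dner or Asic1, so none was common to the 5 genes, which says only that these letters are not in these windows. The 250 bases before the start are shown for Dach1, with the lowest 1b-/- level relative to WT, and for the 2 genes with a match, whose motif is in capitals.
Dach1 (chr14:98169766-98170015, minus strand, GRCm38.p6): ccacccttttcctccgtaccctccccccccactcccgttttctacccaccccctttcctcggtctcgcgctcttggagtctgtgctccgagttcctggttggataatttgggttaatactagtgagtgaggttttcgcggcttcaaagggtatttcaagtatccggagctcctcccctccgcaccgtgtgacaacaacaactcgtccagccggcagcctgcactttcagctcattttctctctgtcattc
Ecel1 (chr1:87156357-87156606, minus strand, GRCm38.p6): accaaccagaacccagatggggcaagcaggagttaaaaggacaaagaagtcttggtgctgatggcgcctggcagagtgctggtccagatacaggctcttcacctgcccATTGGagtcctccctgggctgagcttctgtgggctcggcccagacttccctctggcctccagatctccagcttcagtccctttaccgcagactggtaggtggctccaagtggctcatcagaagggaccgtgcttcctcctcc
Myh7 (chr14:54994627-54994876, minus strand, GRCm38.p6): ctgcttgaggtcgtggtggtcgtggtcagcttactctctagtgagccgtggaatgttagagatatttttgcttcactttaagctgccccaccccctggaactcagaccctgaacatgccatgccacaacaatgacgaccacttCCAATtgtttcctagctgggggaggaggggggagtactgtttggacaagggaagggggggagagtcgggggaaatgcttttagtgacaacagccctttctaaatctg

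Levels between genes were compared per kilobase of annotated exon, on the scaling over 11 libraries. In the heterozygous-round WT libraries, Dner was highest at 61.2 CPM per kilobase, followed by Asic1 (12.2), Dclk3 (9.35) and Smoc1 (7.90). Ngb (4.62), Otof (3.78), Ecel1 (3.43), Dach1 (2.03) and Myh7 (1.77) were lower. Scn1a was at 12.6 CPM per kilobase in the same libraries.

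In the heterozygous round, 5 of the 9 genes were at 25.0% to 46.0% of the WT mean and 4 at 60.6% to 80.2%. Levels given for a single round are CPM scaled within that round. Among all 14630 genes tested, every 1b+/- library was below every WT library for 915, or 6.25%, and above every WT library for 686, or 4.69%; the 9 genes were chosen from the first of these. By edgeR's quasi-likelihood test no gene passed an adjusted p of 0.05, 1649 (11.3%) had an unadjusted p under 0.05, and DESeq2 called 245.

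Ecel1 and Otof had the largest differences. Ecel1 was at 2.60, 2.68, 3.76 and 2.65 CPM in 1b+/- and 6.33, 14.3 and 14.4 CPM in WT, 25.0% of the WT mean (log2 fold change -1.99, SE 0.28). Replicate 3 of 1b+/- was above the other 3, and WT replicate 1 was below the other WT libraries by more than the whole 1b+/- range. Otof was at 8.15, 11.1, 7.63 and 6.55 CPM in 1b+/- and 19.5, 37.9 and 29.7 CPM in WT, 28.8% of the WT mean (log2 fold change -1.79, SE 0.23). Dach1, at 6.22, 6.78, 5.09 and 7.25 CPM against 12.98, 14.2 and 16.2 CPM, was at 43.8% (log2 fold change -1.19, SE 0.13). These 3 encode a membrane peptidase, a calcium sensor and a nuclear cofactor, and none of their groups overlapped. Myh7 was at 5.67, 7.19, 6.73 and 6.58 CPM in 1b+/- and 10.9, 15.2 and 18.3 CPM in WT, 44.2% of the WT mean (log2 fold change -1.17, SE 0.16). Ngb, at 2.95, 4.29, 3.05 and 3.97 CPM against 6.51, 8.02 and 8.73 CPM, was at 46.0% (log2 fold change -1.11, SE 0.16). For all 5 genes WT replicate 1 was the lowest WT library.

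The other 4 genes had smaller differences and, for Dner and Asic1, a narrow spread. Smoc1 was at 16.4, 16.1, 16.7 and 15.9 CPM in 1b+/- and 23.0, 26.4 and 31.2 CPM in WT, 60.6% of the WT mean (log2 fold change -0.72, SE 0.09). Dclk3 was at 21.2, 22.8, 19.4 and 19.4 CPM against 26.3, 38.04 and 31.1 CPM, 65.1% of WT (log2 fold change -0.62, SE 0.12). Asic1 was at 38.8, 41.8, 43.4 and 43.0 CPM against 51.2, 54.6 and 54.1 CPM, 78.3% of WT (log2 fold change -0.35, SE 0.05). Dner, the most abundant of the 9, was at 171, 173, 175 and 174 CPM against 207, 219 and 223 CPM, 80.2% of WT (log2 fold change -0.32, SE 0.04). Its 1b+/- libraries spanned less than 5 CPM (SD 1.995 CPM, n = 4), and the gap to the lowest WT library was wider than the whole WT range.

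WT replicate 1 was the lowest of the 3 WT libraries for 9 of 9 genes, against 35.2% of all genes tested and 58.4% of the 915 genes with every 1b+/- library below WT. The level of each gene in this library therefore sets the gap to the 1b+/- libraries. On the scaling over 11 libraries, this library also held 711 CPM of thalamus markers, against 222 and 204 CPM in the other WT and 207 to 534 CPM in the 1b+/- libraries. All 9 thalamus markers were lower in 1b+/- and none passed the test. The part of that tissue in the values of the 9 genes was not tested. The female 1b+/- library lay inside the range of the 3 males for 6 of the 9 genes, a count made for these genes only. It lay below every WT library, all male, for 9, which the choice of the genes fixes. Leaving out each library in turn, the other scalings, filters and tests left every log2 fold change of the 9 below 0, a direction that the choice of the genes fixes. In the fit reported here, 49.7% of all genes were below 0.

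**Figure D2:**
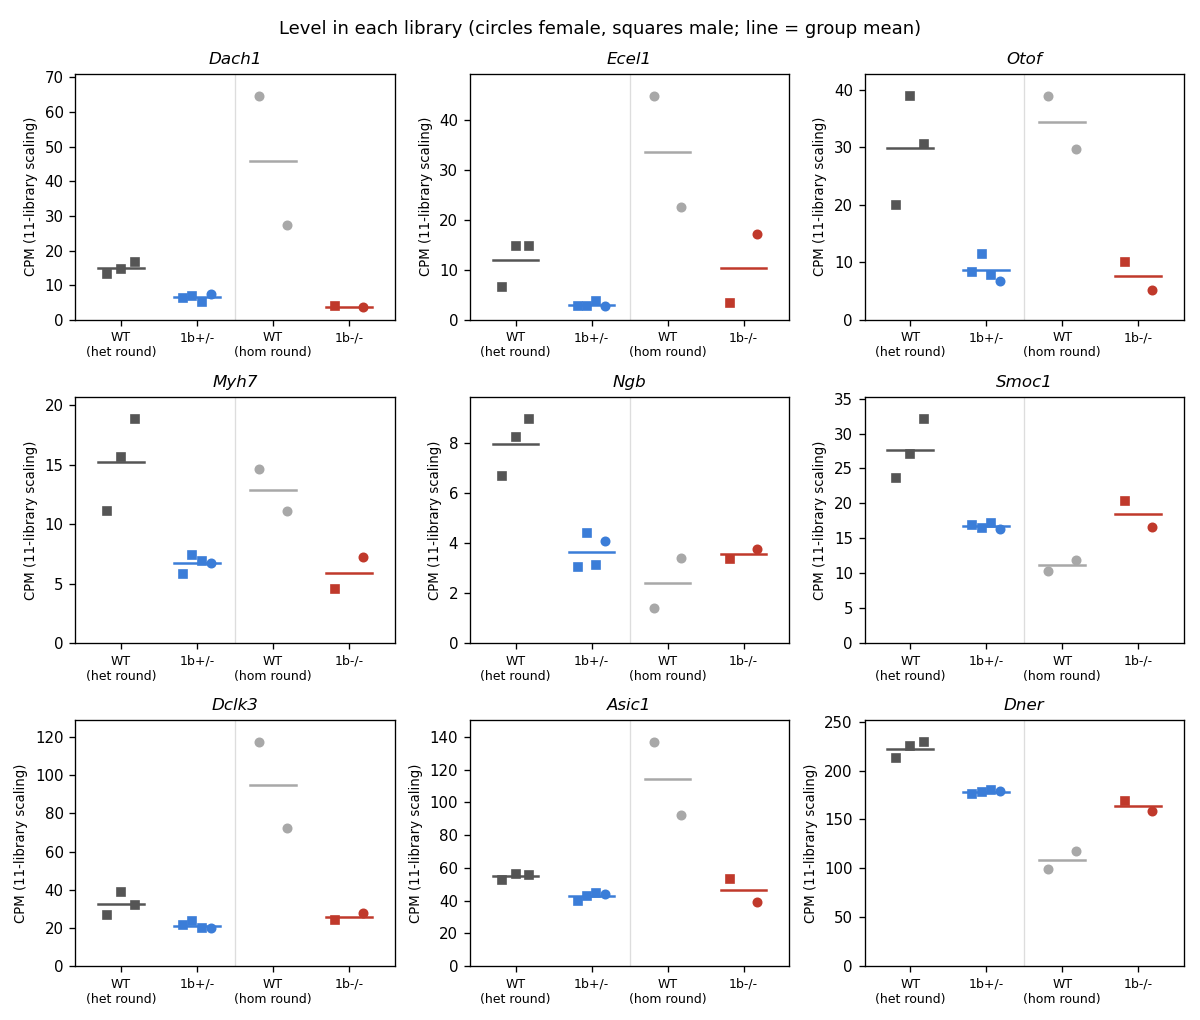
CPM of each of the 9 genes in each library, scaled over all 11 libraries (1 panel a gene, axes from 0, 1 point a library, line at the group mean; circles female, squares male). The 4 1b+/- points lie below the 3 WT points of their round in every panel, while the WT points of the homozygous round lie above those of the heterozygous round for 4 genes, below them for 3 and overlap them for Otof and Myh7.

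Markers of cell types were read beside these values. In the heterozygous round, 10 GABAergic interneuron markers summed to between 976 and 1049 CPM in 1b+/- and between 1057 and 1185 CPM in WT, without overlap. The 8 hilar mossy cell markers summed to between 137 and 169 CPM against 180 to 185 CPM, also without overlap. Gad1 and Gad2, which encode the enzymes that make GABA, were at means of 308 and 183 CPM in 1b+/- and 334 and 222 CPM in WT. Of the mossy cell list, Rgs12 was at 52.0 against 57.0 CPM and Ajap1 at 36.2 against 47.0 CPM. Of the interneuron markers 8 of 10 were lower and 6 had an unadjusted p under 0.05, of the mossy cell markers 6 of 7 tested were lower and 3 did, and no marker of either list passed the adjusted test. The 14 striatal markers summed to between 651 and 701 CPM in 1b+/- and between 699 and 989 CPM in WT, with 13 of 14 lower. At an unadjusted edgeR p under 0.05, 8 of them were lower and 1 higher, and none passed the adjusted test. Over all genes tested, 5.95% were lower and 5.32% higher at that unadjusted p. Pyramidal cell markers overlapped between groups at 1027 to 1233 CPM and 984 to 1077 CPM, with 9 of 11 higher. The part of these cell types in the differences of the 9 genes was not tested.

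In the homozygous round, Dach1, Otof and Dclk3 fell in 1b-/- and were the 3 of 9 genes past an adjusted p of 0.05. Of all 14838 genes tested, 531 (3.58%) passed, 225 of them lower (1.52%) and 306 higher (2.06%). These 4 libraries were not used to choose the genes. The log2 fold change was below 0 for 6 of the 9 genes, against 50.1% of all genes, and above 0 for Dner, Smoc1 and Ngb. Its median over the 9 was -1.30, against -0.00 over all genes tested. In the heterozygous round the median was -1.11. Both 1b-/- libraries were below both WT libraries for 6 of the 9 genes, against 30.2% of all genes, and above both for 2, against 29.5%.

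Dach1 was at 3.92 and 3.76 CPM in 1b-/- and 65.8 and 27.6 CPM in WT, 8.22% of the WT mean. Its log2 fold change was -3.60 (SE 0.45, edgeR quasi-likelihood with Benjamini-Hochberg adjustment, adjusted p = 0.0291). The 1b-/- libraries differed by less than 1 CPM, while the WT libraries differed more than 2 to 1. Otof was at 10.2 and 5.39 CPM in 1b-/- and 39.7 and 30.2 CPM in WT, 22.4% of WT (log2 fold change -2.16, SE 0.35, adjusted p = 0.0452). Dclk3 was at 24.5 and 28.8 CPM against 119 and 73.4 CPM, 27.6% of WT (log2 fold change -1.86, SE 0.26, adjusted p = 0.0345). Without WT replicate 1, the library with the highest striatal sum, none of the 3 calls was made, with adjusted p from 0.101 to 0.127 and log2 fold changes of -2.84, -1.95 and -1.46. In that fit no gene of 14680 passed, although 3861 had an unadjusted p under 0.05. Without WT replicate 2, Otof was not called either (adjusted p = 0.0966). DESeq2 on the full set of libraries called 2144 genes.

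The 3 genes lower in 1b-/- without a call were Asic1, Myh7 and Ecel1. Asic1 was at 54.2 and 40.3 CPM in 1b-/- and 139 and 93.6 CPM in WT, 40.6% of WT (log2 fold change -1.30, SE 0.25, edgeR adjusted p = 0.0592). This proton-gated channel passed without 1b-/- replicate 1, the only male (adjusted p = 0.0295), and not without 1b-/- replicate 2, WT replicate 1 or WT replicate 2 (adjusted p of 0.0984, 0.128 and 0.0697). Myh7 was at 4.63 and 7.46 CPM against 14.9 and 11.3 CPM, 46.2% of WT (log2 fold change -1.12, SE 0.30, adjusted p = 0.102). DESeq2 on the full set of libraries called Asic1 and Myh7 (adjusted p of 3.3e-05 and 0.0246) and not Ecel1 (adjusted p = 0.365). Ecel1 was at 3.38 and 17.8 CPM in 1b-/- and 45.7 and 22.9 CPM in WT, 30.9% of WT (log2 fold change -1.70, SE 0.79, edgeR adjusted p = 0.240). The spread within 1b-/- was over 5-fold for this gene, and its log2 fold change was -3.34 without 1b-/- replicate 2 (adjusted p = 0.0118) and -0.95 without replicate 1 (adjusted p = 0.257). That library, the female, also held 13313 CPM of choroid plexus markers against 62.4 CPM in replicate 1. In the WT libraries of this round the order was the other way, with 3392 CPM of these markers in replicate 2, where Ecel1 was lower, and 53.7 CPM in replicate 1. The part of that tissue in the Ecel1 level was not tested.

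Dner, Smoc1 and Ngb were at higher means in 1b-/- than in WT, the opposite of their direction in 1b+/-. Dner was at 171 and 163 CPM in 1b-/- and 101 and 119 CPM in WT, 152% of WT (log2 fold change 0.60, SE 0.13, edgeR adjusted p = 0.0746). Smoc1 was at 20.6 and 17.1 CPM against 10.6 and 12.02 CPM, 167% of WT (log2 fold change 0.74, SE 0.18, adjusted p = 0.0892). Neither passed, although the groups did not overlap and DESeq2 called both (adjusted p of 0.00493 and 0.0335). Ngb was at 3.41 and 3.88 CPM against 1.44 and 3.46 CPM, so the groups overlapped (log2 fold change 0.57, SE 0.48, edgeR adjusted p = 0.486). For these 3 genes and no other of the 9, both WT libraries of the homozygous round were below all 3 of the heterozygous round, as for 34.1% of all genes.

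**Figure D3:**
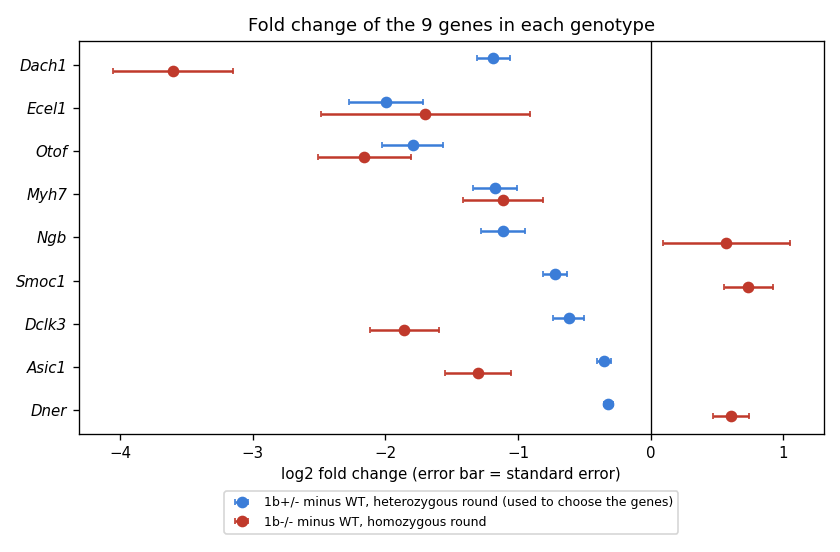
Log2 fold change of the 9 genes in 1b+/- (blue, heterozygous round, the contrast that chose the genes) and in 1b-/- (red, homozygous round), with standard errors. All 9 blue points lie below 0; 6 red points lie below 0 and those of Ngb, Smoc1 and Dner above it.

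The order of the 2 homozygous-round WT libraries differed between these sets of genes in the same way. WT replicate 1, whose striatal sum was 11146 CPM, was above replicate 2 for 6 of the 6 genes lower in 1b-/-, and below it for the 3 others. Among all tested genes with both 1b-/- libraries below both WT libraries, WT replicate 1 was above replicate 2 for 47.2%, and over all tested genes for 50.2%.

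The 1b-/- levels were then set against the WT of both rounds. On the scaling over 11 libraries, both 1b-/- libraries were below all 3 heterozygous-round WT libraries for 6 genes, Dach1, Dner, Otof, Smoc1, Myh7 and Ngb, and overlapped them for Ecel1, Asic1 and Dclk3. The 1b-/- mean was below that WT mean for 9 of the 9 and for 48.3% of all genes. Of 14906 genes, 34% were below and 34.1% above these WT libraries without overlap, so not overlapping across rounds was common. The 1b-/- libraries overlapped the 1b+/- libraries for Otof, Smoc1, Ecel1, Myh7, Ngb and Asic1, lay below them for Dach1 and Dner and above them for Dclk3. The shares of all genes in these positions were not counted, so nothing is read from them. Round and genotype cannot be told apart in any of these values, and the WT libraries used were among those that chose the genes, so they are given without a test.

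Ngb showed how far the direction hung on the WT group. Its mean was 3.57 CPM in 1b-/- and 3.66 CPM in 1b+/-, while its WT means were 7.96 CPM in the heterozygous and 2.42 CPM in the homozygous round. The 1b-/- mean was thus 44.8% of one WT mean and 148% of the other. Smoc1 went from 66.8% of the heterozygous-round WT (27.6 CPM) to 166% of the homozygous-round WT (11.1 CPM), and Dner from 73.7% (222 CPM) to 151% (108 CPM). The mean 1b-/- transcript levels of Ngb, Smoc1 and Dner were thus each below the heterozygous-round WT mean and not below the homozygous-round WT mean.

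For Dach1, Ecel1, Dclk3 and Asic1 the homozygous-round WT mean was the higher. It was 45.9 against 14.8 CPM for Dach1, 33.7 against 11.99 CPM for Ecel1, 94.8 against 32.7 CPM for Dclk3 and 114 against 54.8 CPM for Asic1. In 1b-/-, Dach1 at 3.76 CPM was 25.3% of the heterozygous-round WT, whereas Ecel1, Asic1 and Dclk3 were at 86.0%, 84.5% and 79.6% of it. Dclk3, called in its own round, was thus at 27.5% of one WT mean and 79.6% of the other. The WT groups did not overlap for 67.7% of 14906 genes, and their means differed more than 2-fold for 15.6%.

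Otof and Myh7 were the 2 genes whose WT groups overlapped. Otof was at 20.1, 38.9 and 30.5 CPM in the heterozygous-round WT and 39.0 and 29.8 CPM in the homozygous-round WT, and at 8.60 and 7.67 CPM on average in 1b+/- and 1b-/-. Its 1b-/- mean was 25.7% of one WT mean and 22.3% of the other. Myh7 was at 11.2, 15.6 and 18.8 CPM and at 14.6 and 11.1 CPM in the WT groups, and at 6.72 and 5.90 CPM in the mutants, where 1b-/- was 38.8% and 45.9% of the WT means. For these genes and Dach1, every library of both mutant genotypes was below every WT library of both rounds. By group means, Ecel1, Asic1 and Dclk3 were also below both WT groups in both genotypes. The shares of all genes with these patterns were not counted. The 1b-/- mean alone was below both WT means for 31.6% of all genes. By another measure, every library of each mutant group was below every WT library of its own round for 6 of the 9. Over all genes this held for 256 (1.72%), a share that cannot be set against the 9, whose choice fixed the 1b+/- side.

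**Figure D4:**
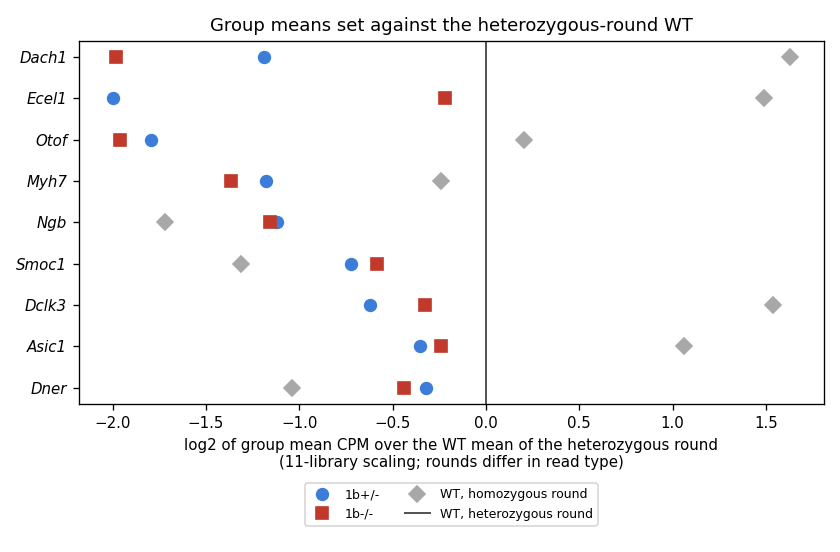
Group means of the 9 genes as log2 of their ratio to the WT mean of the heterozygous round (line at 0; CPM scaled over 11 libraries). The points of 1b+/- and 1b-/- all lie left of the line, and the homozygous-round WT lies right of it for Dach1, Ecel1, Otof, Dclk3 and Asic1 and left of it for Myh7, Ngb, Smoc1 and Dner.

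Families and pathways of the 9 genes were counted in both comparisons, with no gene of them past the adjusted test in the heterozygous round. Around Dach1, the 10 tested genes of the retinal determination network were 5 lower and 5 higher in 1b-/-, and none passed. Skil, a cofactor that restrains SMAD proteins, was at 57.8 CPM against 81.0 CPM in WT (edgeR adjusted p = 0.0868) and Eya1 at 20.5 CPM against 11.95 CPM (adjusted p = 0.0917). Around Dner, 14 of 29 Notch pathway genes were lower in 1b-/- and 15 higher, and 1 passed. This was Numb, an inhibitor of Notch, which fell from 61.5 to 32.7 CPM (log2 fold change -0.91, SE 0.12, adjusted p = 0.0313). On the scaling over 11 libraries Numb was at 33.3 CPM in the heterozygous-round WT, 31.99 CPM in 1b-/- and 60.5 CPM in the homozygous-round WT. Cntn6, a Notch-binding contactin, was at 8.46 against 19.8 CPM (adjusted p = 0.0736). In 1b+/- 19 of the 29 were lower, 3 of them at an unadjusted p under 0.05 (5.95% of all genes), and 1 of the 10 higher was (5.32% of all genes).

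Around Smoc1, 7 genes of the SPARC family and 21 of the BMP pathway were tested. Spock3, an extracellular proteoglycan, fell from 243 to 56.3 CPM in 1b-/- (log2 fold change -2.11, SE 0.29, edgeR adjusted p = 0.0329). Smoc2, the closest relative of Smoc1, was at 31.4 CPM against 4.89 CPM (log2 fold change 2.68, SE 0.78, adjusted p = 0.115). Chrd, which encodes the BMP antagonist chordin, rose from 18.04 to 65.6 CPM (log2 fold change 1.86, SE 0.16, adjusted p = 0.0207), and Bambi, a decoy receptor, was at 6.76 against 2.21 CPM (adjusted p = 0.0626). The BMP list was otherwise split, with 9 lower and 12 higher and a median of 0.05. In the heterozygous-round WT libraries Chrd was at 39.4 CPM and Spock3 at 111 CPM on the scaling over 11 libraries, between the homozygous-round WT and 1b-/- levels.

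Of the ion channel relatives of Asic1, 3 were tested in each round and none passed. Asic4 was at 11.3 CPM in 1b-/- and 78.2 CPM in WT (log2 fold change -2.79, SE 0.63, edgeR adjusted p = 0.0766), and at 8.76 CPM in 1b+/- and 12.5 CPM in WT (log2 fold change -0.51, SE 0.09, adjusted p = 0.0777). On the scaling over 11 libraries Asic4 was at 12.8 CPM in the heterozygous-round WT, 11.1 CPM in 1b-/- and 76.9 CPM in the homozygous-round WT. Asic2 was at 87.4 against 52.4 CPM in 1b-/- (adjusted p = 0.0831) and 56.1 against 60.6 CPM in 1b+/-. Of the M13 metallopeptidases related to Ecel1, 4 of 5 tested were lower in 1b-/-, and Mme, which encodes neprilysin, fell from 41.9 to 6.67 CPM (log2 fold change -2.65, SE 0.29, adjusted p = 0.0251). Phex, a peptidase known from phosphate balance, was at 0.26 against 3.15 CPM (adjusted p = 0.0584). Mme was at 11.3 CPM in the heterozygous-round WT on the scaling over 11 libraries.

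None of the remaining families had a gene past the test. Of the ferlins related to Otof, 3 were tested in 1b-/-, with Fer1l5 at 11.7 against 9.69 CPM and Myof at 11.5 against 5.65 CPM. Of 11 class II myosin heavy chains, 7 were lower, with Myh10, a non-muscle myosin, at 257 against 362 CPM (edgeR adjusted p = 0.115) and Myh8 at 1.76 against 0.739 CPM. Cygb, the only other globin tested, was at 83.7 against 69.7 CPM in 1b-/- and 54.1 against 58.8 CPM in 1b+/-. Of the doublecortin group, 4 of 5 were lower in 1b-/-, with Dclk2 at 108 against 82.1 CPM (adjusted p = 0.225) and Dclk1 at 725 against 927 CPM (adjusted p = 0.294). In the homozygous round 3.58% of all genes tested passed, and in the heterozygous round 0. With so few relatives tested, the lack of calls beside Otof, Myh7, Ngb and Dclk3 is not read as a result.

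The 9 genes were averaged, as z-scores of log2 CPM, into 1 profile over the 7 heterozygous-round libraries, which was at -0.91, -0.58, -0.78 and -0.74 in 1b+/- and 0.52, 1.22 and 1.27 in WT. Since the genes were chosen for separating these libraries by genotype, a high likeness to their profile restates that choice and tests nothing. Of 13224 genes with an average log2 CPM of at least 1, those most like this profile by Pearson's r included Cdh4 (0.993), Prkacb (0.992), Pknox2 (0.981) and Pea15a (0.981). These 4 encode a cadherin, a catalytic subunit of protein kinase A, a homeobox factor and a phosphoprotein of astrocytes and neurons. Cdh4 was at 17.8 CPM in 1b+/- and 36.3 CPM in WT, and Prkacb at 458 and 536 CPM. Pknox2 (40.7 and 48.0 CPM) and Pea15a (531 and 592 CPM) differed less. In the homozygous round none of the 4 passed the edgeR test, with adjusted p from 0.0633 for Cdh4 (log2 fold change -0.71) to 0.507 for Pknox2 (log2 fold change -0.34).

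Within genotype, after the group mean of each gene was taken off, 36 of 36 pairs of the 9 genes correlated positively over the 7 libraries, with a median Pearson's r of 0.53. The highest were Dner with Myh7 (0.95) and Otof with Dclk3 (0.94), and the lowest Dach1 with Ecel1 (0.05). All genes share the same 7 libraries, so these are descriptions. Without WT replicate 1, lowest for all 9, 19 of 36 pairs were positive, with a median of 0.04 and a range from -0.84 to 0.87, so the positive sign of the pairs rests on that library.

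**Figure D5:**
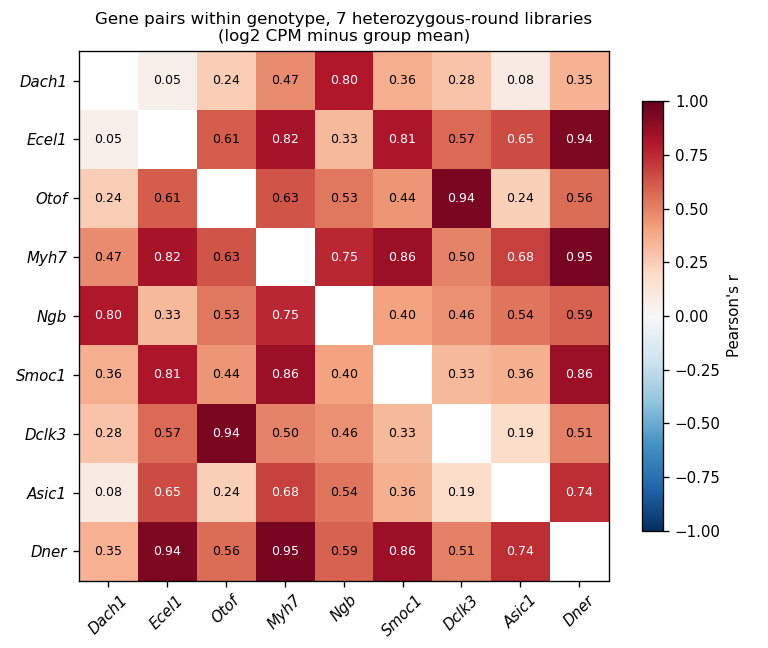
Pearson's r between each pair of the 9 genes over the 7 heterozygous-round libraries, from log2 CPM after subtracting the mean of the genotype (colour scale from -1 to 1). All 36 pairs are above 0, from 0.05 to 0.95, with WT replicate 1 included.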

How the data were processed

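RNA from hippocampus of 11 mice at postnatal day 32 was sequenced by the study with TruSeq Stranded mRNA libraries. The authors deposited whole-number counts for each gene, which per the labels and the study's methods came from STAR 2.7.2 on mm9 and featureCounts and were neither scaled nor filtered. Columns were matched to samples by library name, and no sample column was left unused (0). Each round was analysed in its own table (24391 and 24015 genes). Each table holds 27 symbols turned into dates, left out where the tables were joined (23645 genes).

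Genes reaching 1 CPM in 1 or more libraries (14630 and 14838) were tested with edgeR 4.0.16 in R 4.3.3 (TMM, glmQLFit, glmQLFTest, Benjamini-Hochberg over all genes tested, threshold 0.05), each mutant group against the WT of its round. SE was taken as the size of the log2 fold change over the root of its F statistic. CPM across rounds used TMM over all 11 libraries. Where nothing says that replicates differ by litter or day, p-values measure the spread between these mice. The common coefficient of variation between replicates was 9.13% (heterozygous round) and 22.9% (homozygous round), with 20667122 to 36145161 counts a library; for the genes with the fewest counts, Ecel1 (66 to 96 in 1b+/-) and Ngb (75 to 117), counting error limits precision too.

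The 9 genes and all lists were chosen with earlier results of these data known. Named genes were the 9, Scn1a, from each family list the 2 with the smallest p in the homozygous comparison, from each marker list that moves with a result the 2 with the highest CPM, and the 5 most like the mean z-score (offset 0.1 CPM), of which 1 is not reported here. Trh, Cdh4, Gabrg1, Cartpt, C1ql2, Gad2, Cck and Myh6 were named after their values were seen. Thalamus, choroid plexus and red blood cell markers had 0 genes past the test in the homozygous round and neocortex 1 of 10, lower; the heterozygous round had 0 calls in all. Also tried were leaving out each library, a term for sex, 1 fit of all 11 libraries, filterByExpr or no filter, RLE factors, the likelihood ratio test and DESeq2 1.42.0. Each round held only 1 library of the less common sex, 1b-/- replicate 1 or 1b+/- replicate 4. The term for sex therefore nearly repeats leaving out that library, though both are counted as alternatives. It cannot separate sex from that library. 1b-/- against the heterozygous-round WT was added after seeing the data. Code was tested on simulated counts.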

Additional observations from a re-analysis of the deposited data

Results flagged for a closer look

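Ecel1 had 1 of 4 1b+/- libraries apart from the rest: replicate 3 was at 3.76 CPM and the others between 2.60 and 2.68 CPM. Its gap to the nearest library was 0.93 of the whole range, above the critical value of Dixon's test for 4 samples. Among the 9 genes and Scn1a this was the only such gap, and chance gives about 1 in 20 groups.

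Dner and Smoc1 lay on opposite sides of WT in the 2 genotypes. Every 1b+/- library was below every WT library of its round and every 1b-/- library was above every WT library of its own, with log2 fold changes in 1b-/- of 0.60 for Dner and 0.74 for Smoc1. The difference between the genotypes was not tested, and the WT groups themselves did not overlap for either gene.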

How the results depend on the processing

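In the homozygous comparison, 80 of 99 values of the 9 genes over 11 alternatives kept their direction and side of the threshold, 15 gained the threshold, 4 lost it and 0 turned. The count of all genes called was 531, and became 1029 without a filter, 2144 with DESeq2, 1829 with the likelihood ratio test and 5537 with all 11 libraries in 1 fit. With 1 library left out it ran from 0 (without WT replicate 1) to 693, and was 192 without WT replicate 2. The 3 of 9 genes called became 7 with DESeq2, 6 with the likelihood ratio test, 7 with all 11 libraries, and 0 to 4 with 1 library left out. In the fit without WT replicate 1, 4 of the 9 were lower and 2 higher at an unadjusted p under 0.05. Set against the 3 heterozygous-round WT libraries, chosen after seeing the data, 7319 genes and 6 of the 9 were called, and Dner (-0.45), Smoc1 (-0.59) and Ngb (-1.16) turned from higher to lower; those WT libraries were among the ones that chose the 9, so this is a description and no test of them. In the heterozygous comparison, 0 genes called became 44 without a filter, 245 with DESeq2, 191 with the likelihood ratio test and 0 to 421 with 1 library left out (421 without WT replicate 1, 1 without 1b+/- replicate 3). The 126 values of the 9 genes there kept their direction, which their choice fixes. The causes were not tested. No paired analysis was possible because replicate numbers follow the order of deposit and mark no shared litter or day.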
